A study of Oryza sativa with 10 samples.

Results

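The Saltol interval is a stretch of rice chromosome 1 that breeders use as a source of salt tolerance at the seedling stage, and it is known for its association with the balance of sodium and potassium in the shoot. Roots take up sodium from saline water, and rice lines are known to differ in how much of it they pass on to the shoot. The interval was taken here as the genes that the files place on chromosome 1 between 10.7 and 12.3 Mb of the IRGSP-1.0 build, a stretch of 1.6 Mb, with every exon inside these bounds. This gave 136 of the 38978 genes in the count files. One gene of the interval was left out by the rule and is not reported here.

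Roots of Oryza sativa were sequenced from 2 lines, S13, labelled salt tolerant, and S3, labelled salt susceptible. The groups were S13 plants in 140 mM NaCl (n = 3), S13 plants in 0 mM NaCl as controls (n = 2), S3 plants in 140 mM NaCl (n = 3) and S3 plants in 0 mM NaCl as controls (n = 2). Treatment lasted 12 days, and roots were taken at an age of 42 days. The labels leave it unsaid which form of the Saltol locus either line carries and whether replicates are separate plants, and the spread that the p-values rest on may therefore be technical.

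The libraries held 22938524 to 25703942 counts each. Plastid genes of green tissue (psbA, psbB, psbC, psbD, psaA and psaB) were the only listed cell type markers found by name, so the tissue rests on the labels. Their summed level was 68.0 to 173 CPM (counts divided by the TMM-scaled library size) in S13 salt and 78.7 to 175 CPM in S13 control libraries, and 152 to 255 CPM in S3 salt and 108 to 129 CPM in S3 control libraries. The S3 salt libraries all lay above the S3 controls in this sum. Gene by gene, 3 of the 6 in S13 (psbB, psaA and psaB) and 5 of the 6 in S3 were higher in every salt library than in any control, and psbA was lower in both lines. Their part in the salt results of either line was not tested.

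Of the 136 members, 63 lay on the plus and 73 on the minus strand, from a first start at base 10701626 to a last end at base 12292395. Their exons summed to between 277 and 5615 bases per gene, with a median of 1210. The files and the reference table gave none of them a name or a function (0 matched), so they are described by identifier, position and values. Exon bases were shared with another gene by 37 members, in 19 pairs that all lay on opposite strands. The shared part was 0.799% to 100% of the shorter gene's exon bases. Strandedness is not given, so reads in the shared bases cannot be assigned to either partner with certainty. With 0.5 or more of the shorter gene's exon bases as the limit, the members formed 119 separate sets.

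A total of 101 members had enough counts to be tested, and 35 did not. Of the 35 not tested, 8 had 0 counts in every library, 16 had 1 to 9 counts over all 10 libraries and 11 had 10 counts or more. Each library detected 107 to 116 members with at least 1 count, and 94 members were detected in every library. The tested members therefore exclude most genes that stayed near 0 in these roots, and counts over them do not describe all members.

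Levels among the tested members ran from a mean of 0.134 to 966 CPM over the libraries, with a median of 7.20 CPM. A mean of 100 CPM or more was reached by 11, and 33 lay between 10 and 100, 36 between 1 and 10, and 21 below 1. The 6 most abundant held 52.6% to 76.6% of all counts of the interval, depending on the library, or 48.0% to 68.6% with each of their 4 loci, and every other set of overlapping genes, counted once. With overlapping genes counted separately, the members as a whole took 0.548% ± 0.0699 of the counts in S13 salt libraries (SD, n = 3) and 0.523% ± 0.0141 in S13 controls (SD, n = 2), and 0.505% ± 0.0217 in S3 salt libraries (SD, n = 3) and 0.472% ± 0.0424 in S3 controls (SD, n = 2).

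The pair at the top of this range, Os01g0303300 and Os01g0303401, rose under salt in both lines. Os01g0303300 is a minus-strand gene of 6 exons (bases 11221847 to 11223469), and 84.0% of the exon bases of Os01g0303401 on the plus strand (11222066 to 11223392) lie within its exons. In the 3 S13 salt libraries Os01g0303300 had 1190, 1285 and 2367 CPM, against 324 and 357 CPM in the 2 S13 controls. In S3 it had 1012, 1202 and 1125 CPM with salt and 318 and 478 CPM in controls. Salt and control libraries did not overlap in either line, and the third S13 salt library stood above all others. The difference was 4.74-fold in S13 (log2 fold change 2.24 ± 0.38 SE, edgeR quasi-likelihood test with Benjamini-Hochberg adjusted p = 0.00330) and 2.80-fold in S3 (1.48 ± 0.37, adjusted p = 0.0124). Os01g0303401 moved with it, by 2.26 in S13 and 1.5 in S3 on the log2 scale, with nearly equal counts. Without the first S3 control library the S3 difference of both genes was 1.22 and no longer passed, nor did it with library totals, at 0.78 and 0.79. Os01g0303300 made up 8.10% to 29.2% of the interval's counts in a library, a total that also holds the counts of Os01g0303401, and 9.63% to 45.7% when each set of overlapping genes was counted once.

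The genes next in abundance did not move like that pair. Os01g0303000, a minus-strand gene of 1 exon (11202609 to 11203331), had 383, 344 and 518 CPM in S13 salt libraries, against 844 and 657 CPM in S13 controls. It fell in S13 (log2 fold change -0.85 ± 0.28, edgeR adjusted p = 0.0440), a call so close to the threshold that leaving out either S13 control or any of several other libraries ended it, with values of -0.66 without the first and -1.03 without the second S13 control. Its S3 values were 403, 392 and 303 CPM with salt and 449 and 530 CPM in controls, groups that did not overlap but whose difference of -0.42 ± 0.28 did not pass (adjusted p = 0.269). Os01g0314800 (11863682 to 11864412, minus strand) had 554, 323 and 340 CPM in S13 salt and 386 and 420 CPM in S13 control libraries, and 326, 255 and 443 CPM in S3 salt and 323 and 366 CPM in S3 control libraries. Salt and control libraries overlapped in each line, and its salt log2 fold change was 0.01 ± 0.32 in S13 and -0.01 ± 0.32 in S3 (edgeR adjusted p = 0.986 and 0.988). Both S13 controls lay above both S3 controls, a line difference that did not pass the edgeR test (0.22 ± 0.35, adjusted p = 0.964). Levels set beside each other per kilobase of exon gave 1656 CPM per kb for Os01g0303401, 1118 for Os01g0303300, 667 for Os01g0303000 and 623 for Os01g0314800. Os01g0303401 and Os01g0303300 share exon bases and had nearly equal counts, so their order here follows from their exon lengths.

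Across the interval, salt changed 25 of the 101 tested members in S13, 15 higher and 10 lower, or 24.8% of them. The share among all 28189 genes tested was 27.1%, and among the other genes of chromosome 1 it was 26.9%. In S3, salt changed 34 members, 20 higher and 14 lower, or 33.7%, against 32.8% of all genes and 32.8% of the other genes of chromosome 1. The share of members that responded was thus near that of the genome in both lines. Of these calls, 22 in S13 and 33 in S3 were differences of at least 2-fold. Among all genes, 6994 of the 7627 calls in S13 and 8359 of the 9237 calls in S3 were of that size.

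By direction, 14.9% of tested members rose and 9.9% fell in S13, where 12.8% of all genes rose and 14.2% fell. In S3 19.8% rose and 13.9% fell, against 14.4% and 18.4% of all genes. The median log2 fold change of the tested members was -0.03 in S13, equal to that of all genes at -0.03, and 0.07 in S3, against -0.06 for all genes. Scaling by library totals instead of TMM put the median of all genes at -0.76 in S13 and -0.77 in S3. With that scaling the split was 7 higher and 32 lower members in S13, and 6 higher and 27 lower in S3, so the balance of directions holds only relative to the scaling. Shares of all genes called by direction with that scaling are not given here, so the split does not set the members apart.

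Overlapping genes weigh on these counts little: of 85 separate sets tested, 13 rose and 10 fell in S13, and 17 rose and 13 fell in S3. Shares of all genes counted by set are not given here. Several calls described below were lost when a control of the line was left out. Such a fit keeps a single control in that line, so its number of calls is not interpreted here. That number enters only the ranges over left-out libraries given further below.

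Salt and control libraries did not overlap for 26 members that were higher and 30 that were lower in S13, or 25.7% and 29.7%, against 25.8% and 31.8% of all genes. In S3 the numbers were 39 higher and 30 lower, or 38.6% and 29.7%, against 28.2% and 33.6% of all genes. Every called member was among them.

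**Figure D1:**
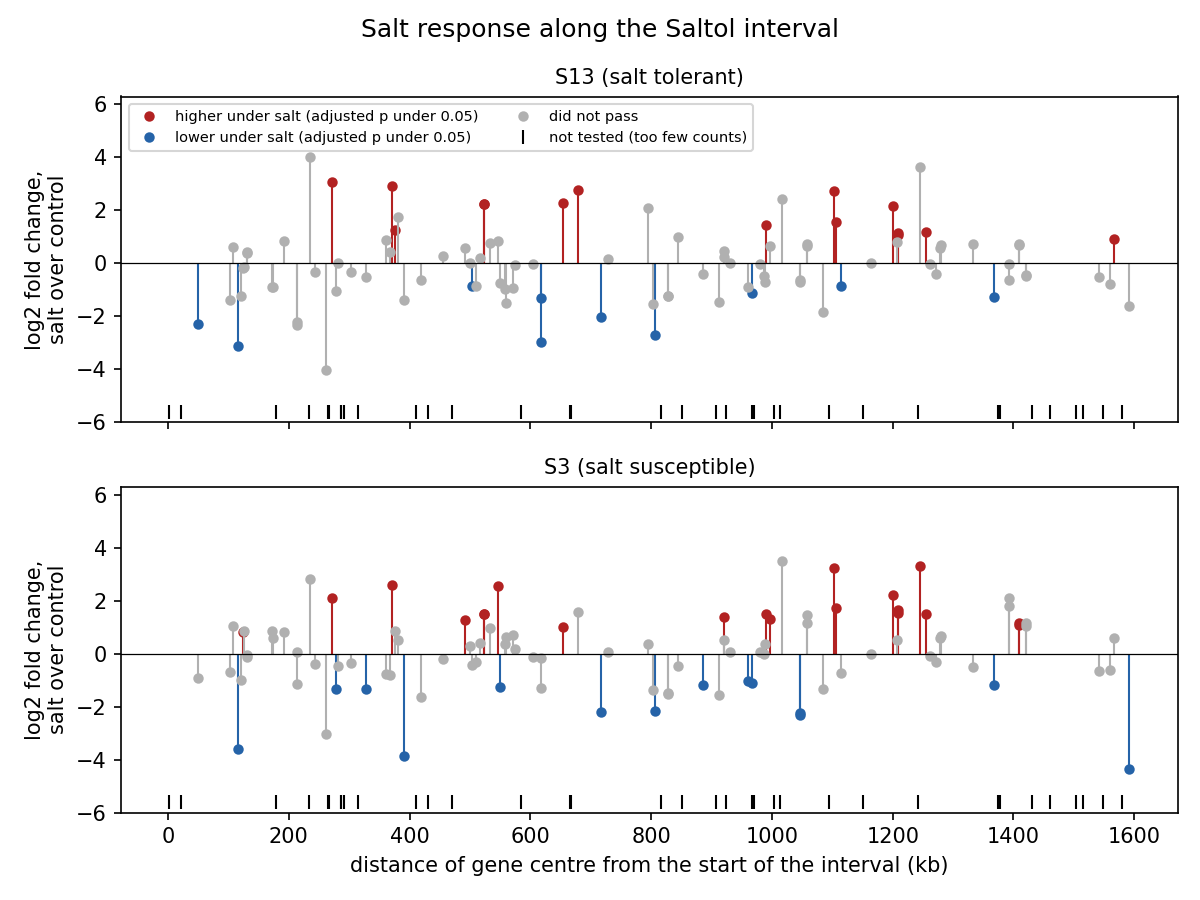
Salt response of the tested members by position, with the distance of each gene's centre from the start of the interval in kb on the x axis and the log2 fold change, salt over control, on the y axis, for S13 above and S3 below. Red and blue points passed the test upward or downward, grey points did not pass and black ticks mark the 35 members that were not tested; higher and lower members are interspersed along the interval in both lines.

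Members that rose and members that fell lay side by side. In 4 windows of 0.4 Mb, drawn after the values were seen, S13 had 3, 4, 4 and 4 members higher and 2, 4, 3 and 1 lower, in order of position. S3 had 3, 5, 6 and 6 higher and 4, 2, 6 and 2 lower. The last window, with 21 tested members, had a median log2 fold change of 0.59 in S13 and 0.66 in S3, whereas the first, with 28, had -0.25 and -0.24. These are descriptions of neighbouring genes, which were not tested as groups.

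Most responses had the same direction in the 2 lines. In both lines 12 members rose and 5 fell, or 11.9% and 4.95% of those tested, against 8.36% and 10.1% of all genes and 8.57% and 9.36% of the other genes of chromosome 1. Opposite calls were made for 0 members and for 4 of all genes. Of the 8 called in S13 alone, all 8 had the same sign in S3, as did 88.6% of all such genes. Of the 17 called in S3 alone, 16 (94.1%) had the same sign in S13, against 90.6% of all such genes. The log2 fold changes of the lines, which share no library, had a Pearson correlation of 0.779 over the 101 tested members and of 0.738 over all genes, given as a description of genes that are not independent. The lines thus shared directions over the whole genome as well as in the interval.

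**Figure D2:**
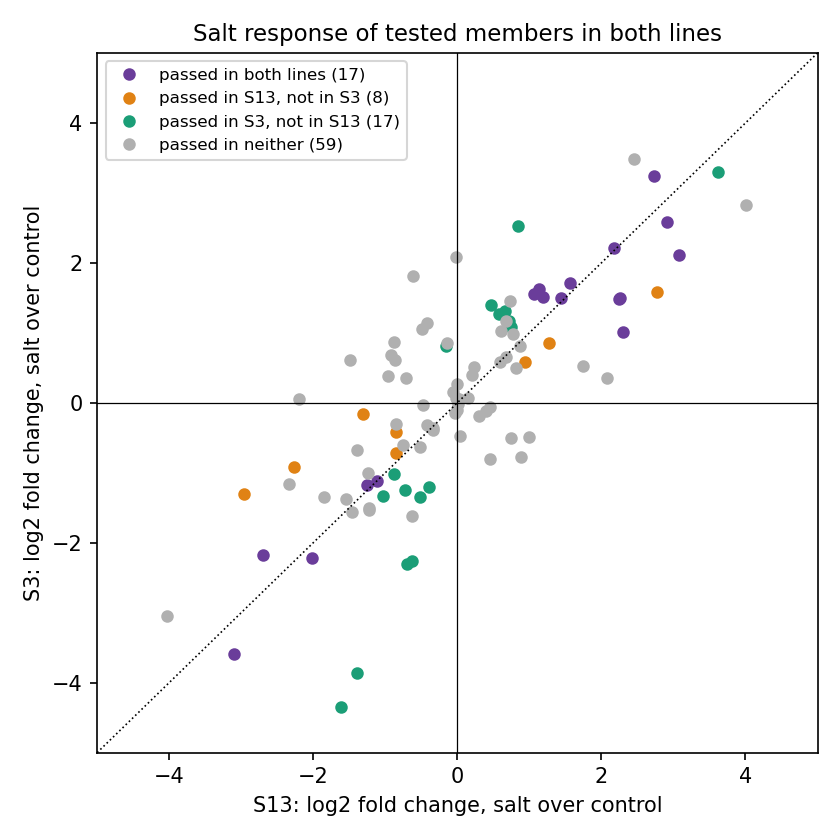
Log2 fold change, salt over control, of each tested member in S13 (x axis) and S3 (y axis), coloured by whether it passed the test in both lines (17), in S13 alone (8), in S3 alone (17) or in neither (59); the dotted line marks equal responses. Members that passed in both lines lie in the upper right (12) or the lower left (5), and none lies in the other corners.

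Among members higher in both lines, Os01g0314000 (11800240 to 11803815, minus strand) differed most in S3 of those above 5 CPM. It had 122, 274 and 48.7 CPM in S13 salt libraries and 19.7 and 25 CPM in S13 controls, and 134, 161 and 141 CPM in S3 salt libraries and 14.0 and 16.7 CPM in S3 controls. The S3 salt libraries lay close together, while those of S13 spread widely but stayed above both controls. The difference was 6.62-fold in S13 (log2 fold change 2.73 ± 0.59, edgeR adjusted p = 0.00878) and 9.47-fold in S3 (3.24 ± 0.60, adjusted p = 0.00368). Its neighbour on the same strand, Os01g0314100 (11804161 to 11809029), had 100, 218 and 49.0 CPM in S13 salt and 37.7 and 45.2 CPM in S13 control libraries, and 131, 115 and 117 CPM in S3 salt and 38.3 and 35.5 CPM in S3 control libraries. Both genes were thus highest in the second and lowest in the third S13 salt library. Os01g0314100 rose by a smaller amount, 1.56 ± 0.49 in S13 and 1.71 ± 0.50 in S3 on the log2 scale (edgeR adjusted p = 0.0388 and 0.0238). The S13 call of Os01g0314000 was lost without the first (2.56) or the second S13 control (2.91), while its S3 call was kept under every alternative run. For Os01g0314100 many omissions ended the call, among them the second S13 salt library, without which the S13 value was 0.85, and with library totals neither line's call was kept (0.79 in S13 and 1.0 in S3).

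The overlapping pair Os01g0315800 (11906864 to 11910915, minus strand) and Os01g0315850 (11907260 to 11910774, plus strand) had 98.2% of the shorter one's exon bases in common and rose in both lines. Os01g0315800 had 313, 364 and 331 CPM in S13 salt libraries and 155 and 166 CPM in S13 controls. In S3 it had 448, 444 and 405 CPM with salt and 134 and 162 CPM in controls. The salt groups were tight and lay well above the controls. All S3 salt libraries lay above the S13 salt libraries, but this line difference did not pass the edgeR test (-0.37 ± 0.21, adjusted p = 0.428). The salt difference was 2.09-fold in S13 (log2 fold change 1.06 ± 0.24, edgeR adjusted p = 0.0103) and 2.92-fold in S3 (1.55 ± 0.24, adjusted p = 0.00191). For Os01g0315850 it was 1.13 ± 0.25 in S13 and 1.63 ± 0.25 in S3. The S13 call was lost for Os01g0315800 without the first (1.01) or the second (1.12) S13 control and with library totals (0.32), and likewise for Os01g0315850 (1.08, 1.19 and 0.39).

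Os01g0316500 (11953342 to 11955432, minus strand, 2 exons) also rose in both lines. It had 65.3, 99.0 and 80.0 CPM in S13 salt and 36.2 and 35.3 CPM in S13 control libraries, and 79.1, 109 and 83.7 CPM in S3 salt and 31.5 and 32.1 CPM in S3 control libraries. Controls of both lines lay within a narrow band below every salt library. The difference was 2.28-fold in S13 (log2 fold change 1.19 ± 0.26, edgeR adjusted p = 0.00943) and 2.84-fold in S3 (1.51 ± 0.26, adjusted p = 0.00288). The S13 call was lost without the first (1.21) or the second S13 control (1.17) and with library totals (0.43).

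Os01g0305900 (11350507 to 11356863, plus strand) rose in both lines, whose control levels were unequal. It had 12.4, 13.2 and 22.8 CPM in S13 salt libraries and 2.63 and 3.94 CPM in S13 controls. In S3 it had 15.6, 19.2 and 21.0 CPM with salt and 8.95 and 9.47 CPM in controls. The S13 controls were the lowest libraries, whereas the salt groups of the lines overlapped. The difference was 4.91-fold in S13 (log2 fold change 2.29 ± 0.36, edgeR adjusted p = 0.00256), a call kept under every alternative run, and 2.02-fold in S3 (1.01 ± 0.34, adjusted p = 0.0404). The S3 call was lost on leaving out either S3 control (0.97 and 1.06), the second (0.99) or the third (0.92) S3 salt library or either S13 control (1.02 each time). It was also lost with library totals (0.30) and with the replicate number as a block (0.82).

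Os01g0299300 (10969328 to 10973346, minus strand) was the member above 5 CPM with the greatest rise in S13. Its values were 9.50, 4.86 and 2.43 CPM in S13 salt and 1.04 and 0.275 CPM in S13 control libraries, and 4.41, 5.05 and 4.25 CPM in S3 salt and 0.916 and 1.20 CPM in S3 control libraries. Salt libraries exceeded controls in both lines, by 8.47-fold in S13 (log2 fold change 3.08 ± 0.68, edgeR adjusted p = 0.00972) and 4.31-fold in S3 (2.11 ± 0.64, adjusted p = 0.0291). Without the second S13 control the S13 value was 2.42 and did not pass. The S3 value did not pass without the first (1.93) or the second (2.31) S3 control, on omission of the first (2.13) or the second (2.03) S3 salt library, or with library totals (1.4).

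Os01g0295900, a minus-strand gene of 11 exons (10814139 to 10818530), had the largest fall among members above 5 CPM in both lines. It had 1.71, 0.810 and 1.62 CPM in S13 salt libraries and 12.0 and 11.9 CPM in S13 controls, and 0.704, 1.33 and 1.74 CPM in S3 salt libraries and 16.8 and 13.6 CPM in S3 controls. Every salt library was below 2 CPM and every control above 10. The difference was 8.58-fold in S13 (log2 fold change -3.10 ± 0.42, edgeR adjusted p = 0.00153) and 12.0-fold in S3 (-3.59 ± 0.42, adjusted p = 0.000774). Both calls were kept under every alternative run.

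Os01g0306800 (11412154 to 11421047, plus strand, 7 exons) fell as steadily. It had 4.79, 3.35 and 4.85 CPM in S13 salt and 16.5 and 18.6 CPM in S13 control libraries, and 4.46, 5.89 and 4.20 CPM in S3 salt and 22.1 and 22.9 CPM in S3 control libraries. The salt libraries of the lines were interleaved. The S3 controls lay above the S13 controls, a line difference that did not pass the edgeR test (-0.36 ± 0.30, adjusted p = 0.889). The salt difference was 4.05-fold in S13 (log2 fold change -2.02 ± 0.28, edgeR adjusted p = 0.00164) and 4.64-fold in S3 (-2.21 ± 0.28, adjusted p = 0.000952), again under every alternative run.

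Os01g0307686 (11505079 to 11506118, minus strand) was among the more abundant members that fell. It had 24.4, 6.24 and 11.8 CPM in S13 salt and 96.2 and 87.3 CPM in S13 control libraries, and 12.6, 8.0 and 16.9 CPM in S3 salt and 35.1 and 77.7 CPM in S3 control libraries. Groups did not overlap in either line, although the S3 controls differed from each other by more than those of S13. The difference was 6.47-fold in S13 (log2 fold change -2.69 ± 0.53, edgeR adjusted p = 0.00600) and 4.50-fold in S3 (-2.17 ± 0.52, adjusted p = 0.0111), and the S3 call was lost without the second S3 control (-1.48). A smaller fall in both lines was that of the single-exon gene Os01g0317800 (12067684 to 12068949, plus strand). It had 3.69, 3.53 and 5.36 CPM in S13 salt and 11.6 and 8.41 CPM in S13 control libraries, and 3.94, 6.0 and 5.70 CPM in S3 salt and 14.6 and 8.97 CPM in S3 control libraries. Its log2 fold change was -1.25 ± 0.35 in S13 (edgeR adjusted p = 0.0235) and -1.18 ± 0.34 in S3 (adjusted p = 0.0248). It did not pass in S13 without the first (-1.0) or the second (-1.47) S13 control or the first S13 salt library (-1.17), nor in S3 without the first S3 control (-0.78) or the first S3 salt library (-1.01).

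**Figure D3:**
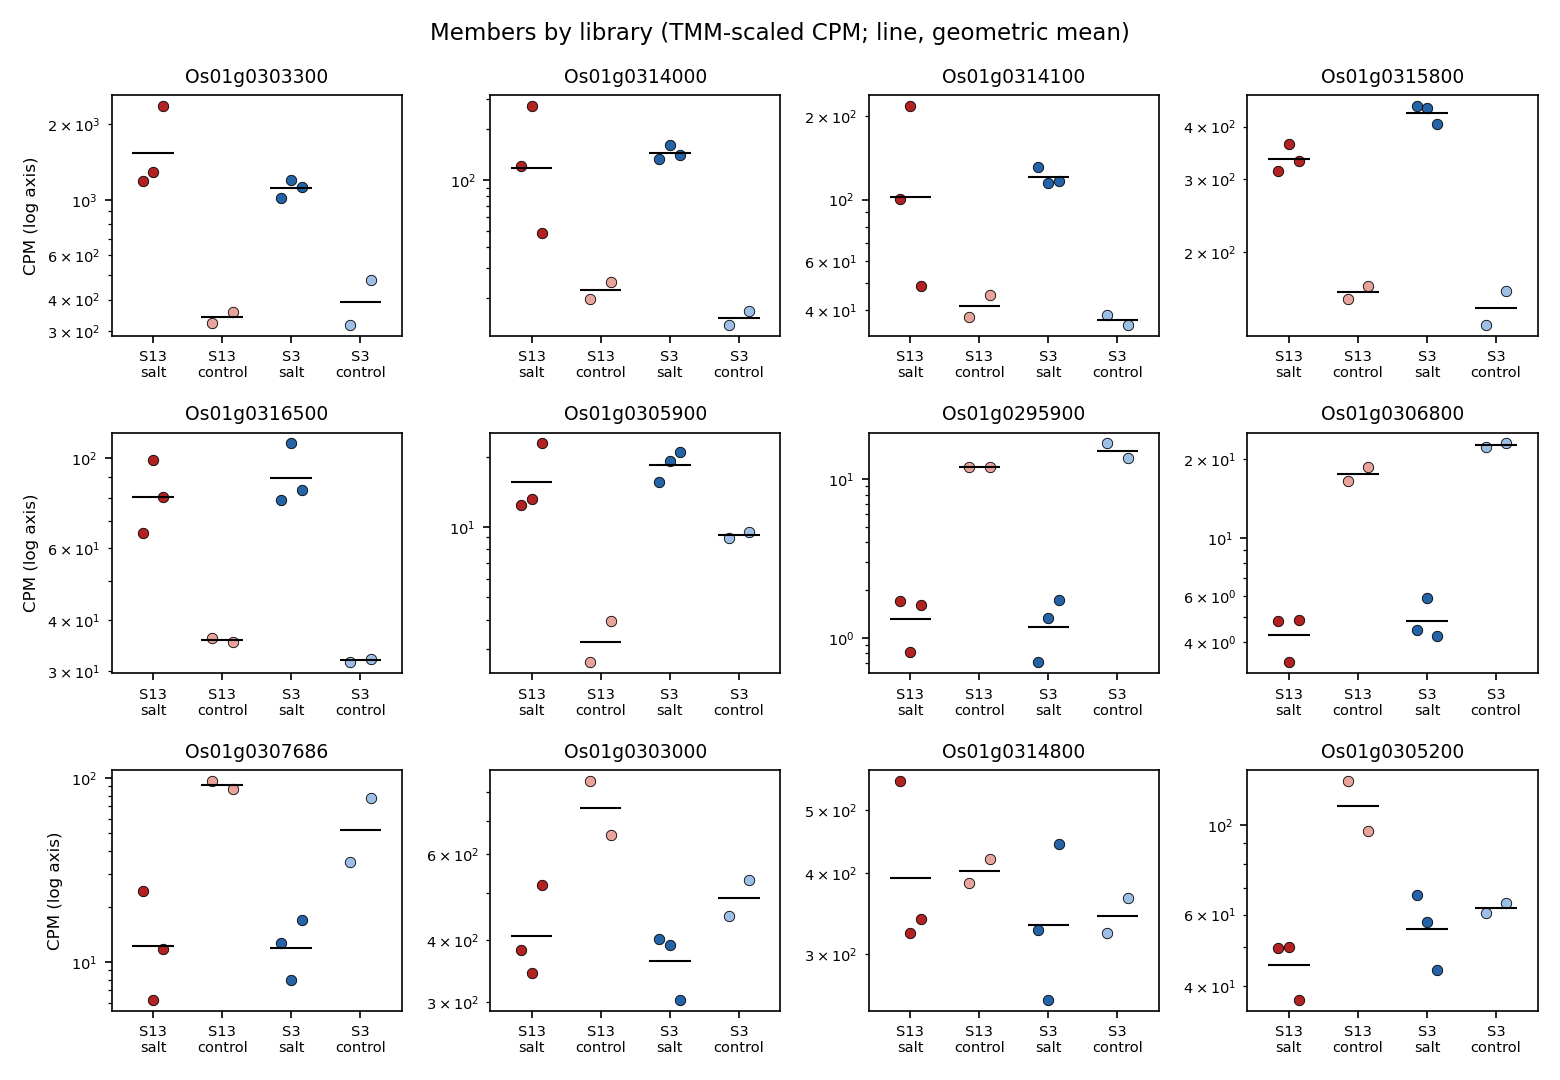
TMM-scaled CPM on log axes of 12 members in each library, with S13 salt, S13 control, S3 salt and S3 control from left to right, a point per library and a line at the geometric mean of each group. Os01g0295900 and Os01g0306800 lie lower in every salt library than in any control, Os01g0314000 and Os01g0316500 lie higher in salt libraries in both lines, and salt and control libraries of Os01g0314800 overlap within each line.

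Of the named members, 3 others passed the test in S13 alone. Os01g0305200 (11316720 to 11320061, plus strand, 6 exons) had 49.6, 49.8 and 37.0 CPM in S13 salt libraries and 128 and 96.4 CPM in S13 controls. In S3 it had 66.9, 57.6 and 43.8 CPM with salt and 60.5 and 64.3 CPM in controls. The S13 controls were the highest libraries and the S3 groups overlapped. Its log2 fold change was -1.31 ± 0.26 in S13 (edgeR adjusted p = 0.00646; not called without the first S13 control, at -1.09) and -0.15 ± 0.26 in S3 (adjusted p = 0.682). The difference between these responses, S13 minus S3, was -1.15 ± 0.37 on the log2 scale and did not pass (adjusted p = 0.498).

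Os01g0305300 (11317192 to 11317678, plus strand, 1 exon) lies within the span of Os01g0305200 without sharing exon bases with it. It had 1.36, 0.231 and 0.354 CPM in S13 salt and 5.07 and 5.32 CPM in S13 control libraries, and 1.78, 1.00 and 0.435 CPM in S3 salt and 1.28 and 4.03 CPM in S3 control libraries. Its S13 groups were far apart while its S3 groups overlapped. The log2 fold change was -2.96 ± 0.77 in S13 (edgeR adjusted p = 0.0185; -3.0 without the first and -2.93 without the second S13 control, neither past the threshold) and -1.30 ± 0.75 in S3 (adjusted p = 0.201).

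Os01g0306400 (11378620 to 11380071, plus strand, 1 exon) had 73.5, 30.2 and 136 CPM in S13 salt and 16.2 and 7.24 CPM in S13 control libraries. The S3 values were 68.4, 143 and 158 CPM with salt and 56.8 and 24.9 CPM in controls. Neither line's groups overlapped, but the libraries of each group varied widely. The log2 fold change was 2.77 ± 0.69 in S13 (edgeR adjusted p = 0.0153; 3.47 without the first and 2.30 without the second S13 control, neither past the threshold) and 1.59 ± 0.64 in S3 (adjusted p = 0.0799). The S3 difference passed with DESeq2 (1.64) and with only the groups compared (1.61), so its absence from the S3 calls depends on the test.

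In S3 alone, Os01g0303800 (11245253 to 11246737, plus strand) had the greatest rise of the named members. It had 15.8, 20.1 and 20.5 CPM in S3 salt and 3.08 and 3.40 CPM in S3 control libraries, and 8.31, 33.0 and 13.2 CPM in S13 salt and 14.3 and 5.99 CPM in S13 control libraries. The S3 groups were tight and apart, and the S13 groups overlapped. The log2 fold change was 2.53 ± 0.59 in S3 (edgeR adjusted p = 0.00933; 2.46 without the first and 2.61 without the second S3 control, neither past the threshold) and 0.84 ± 0.54 in S13 (adjusted p = 0.263). The difference of the responses, S13 minus S3, was -1.69 ± 0.75 and did not pass (adjusted p = 0.567).

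The pair Os01g0312500 (11741908 to 11750685, plus strand) and Os01g0312600 (11742340 to 11750448, minus strand), which share 92.6% of the shorter gene's exon bases, fell in S3. Os01g0312500 had 1.5, 1.83 and 3.04 CPM in S3 salt and 9.65 and 10.7 CPM in S3 control libraries, and 4.13, 2.14 and 3.08 CPM in S13 salt and 3.64 and 6.08 CPM in S13 control libraries. The S3 controls were the highest of all libraries. The log2 fold change was -2.25 ± 0.41 in S3 (edgeR adjusted p = 0.00349), kept under every alternative run, and -0.64 ± 0.41 in S13 (adjusted p = 0.266). Its partner fell by 2.30 ± 0.44 in S3 (adjusted p = 0.00407). For Os01g0312500 the responses, S13 minus S3, differed by 1.62 ± 0.59 (adjusted p = 0.519), a difference that did not pass.

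The remaining called members had too few counts or smaller differences to be named under the rule. In S13 the called rises ran from 0.94 to 3.08 on the log2 scale with a median of 2.17, and the falls from -3.10 to -0.85 with a median of -1.66. In S3 the rises ran from 0.81 to 3.30 with a median of 1.5, and the falls from -4.35 to -1.02 with a median of -1.75. Both S3 extremes belonged to genes under 5 CPM in their higher group, of which there were 3 among the S13 calls and 6 among the S3 calls.

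Without salt, no member differed between the lines by the adjusted threshold. The edgeR test called 0 of 101 members in S13 control against S3 control, where it called 1.42% of all genes (0.756% higher and 0.667% lower in S13) and 2.04% of the other genes of chromosome 1. DESeq2 called 1 member, and its share of all genes is not given here. At an unadjusted p under 0.05 there were 12, or 11.9%, against 8.75% of all genes and 10.04% of the other genes of chromosome 1. The lowest adjusted p was 0.106, for Os01g0305900, whose S13 controls of 2.63 and 3.94 CPM lay below the S3 controls of 8.95 and 9.47 CPM (log2 fold change -1.49 ± 0.37).

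Under salt, 3 members differed between the lines. The edgeR test called 2.97% of the members in S13 salt against S3 salt, 2 higher and 1 lower in S13, against 3.57% of all genes (1.8% higher and 1.77% lower in S13) and 4.36% of the other genes of chromosome 1. All 3 calls were weak: each was lost under several alternatives, and none was made when the fit held only the salt groups. Salt libraries of the lines did not overlap for 7 members that were higher and 12 that were lower in S13, or 6.93% and 11.9%, against 8.74% and 8.8% of all genes.

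Os01g0300600 (11025448 to 11029186, minus strand, 7 exons) is the one above 5 CPM. It had 26.0, 16.2 and 23.7 CPM in S13 salt libraries, against 11.9, 8.28 and 7.88 CPM in S3 salt libraries. The controls had 31.4 CPM in both S13 libraries and 21.4 and 26.1 CPM in S3. All S13 salt libraries lay above all S3 salt libraries, by 2.35-fold (log2 fold change 1.23 ± 0.26, edgeR adjusted p = 0.0278). The gene fell under salt in S3 by 1.34 ± 0.29 on the log2 scale (adjusted p = 0.00664, kept under every alternative run), while its S13 difference was -0.51 ± 0.29 (adjusted p = 0.198). The difference of these responses, S13 minus S3, was 0.83 ± 0.41 (adjusted p = 0.606) and did not pass. The line difference under salt was no longer called on leaving out either S13 control (1.23 each time), the first (1.07) or the third (1.17) S13 salt library, or the second (1.15) or the third (1.12) S3 salt library.

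The other calls were of sparsely counted genes and are named because there were so few calls, after their values were seen. Os01g0307562, a minus-strand gene of 1 exon (11494771 to 11496222), had 52, 29 and 41 counts in S13 salt libraries, against 2, 9 and 6 counts in S3 salt libraries. The controls had 22 and 9 counts in S13 and 4 and 10 in S3. S13 salt libraries stood above every other library, with a mean of 2.01 ± 0.309 CPM (SD, n = 3) against 0.295 ± 0.203 CPM in S3 salt (SD, n = 3). The difference was 6.84-fold (log2 fold change 2.77 ± 0.66, edgeR adjusted p = 0.0458). Within S13 the salt difference of 2.08 ± 0.71 just missed the threshold (adjusted p = 0.0517) and passed with DESeq2 (2.12), in S3 it was 0.35 ± 0.77 (adjusted p = 0.756), and the difference of the responses was 1.72 ± 1.04 (adjusted p = 0.660). The call between the lines was lost on leaving out any library other than the second S13 salt library, with values from 2.34 to 3.36.

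Os01g0304050 (11253627 to 11266197, plus strand) had 2, 1 and 3 counts in S13 salt libraries, against 19, 8 and 20 counts in S3 salt libraries. The controls had 9 and 10 counts in S13 and 23 and 9 in S3. S13 salt libraries were the lowest of all, by 7.39-fold against S3 salt (log2 fold change -2.89 ± 0.69, edgeR adjusted p = 0.0458), and each of them was at or below 3 counts, the limit that a count of 0 allows. Leaving out any one library ended the call, with values from -3.29 to -2.65. It overlaps Os01g0304100, which did not pass.

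The salt responses of the 2 lines were also compared directly. No member had a difference of responses past the threshold (0 of 101, edgeR; 0 with DESeq2), nor did any gene of the genome (0%). At an unadjusted p under 0.05 there were 10 members, or 9.9%, against 8.64% of all genes, and the lowest adjusted p was 0.484. A call in one line and not in the other therefore does not show here that the lines responded differently.

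Reads in 1 line only, taken as 0 counts in all 5 libraries of a line and at least 10 in the other, were found for 1 of the 112 members with at least 10 counts, or 0.893%, against 1.68% of 31773 such genes in all (1.05% with reads in S13 only and 0.636% in S3 only). The member was Os01g0302500 (11167043 to 11174451, plus strand, 5 exons). Its 64 counts, or 1.95 CPM, all came from the first S3 control library, and the other 9 libraries, the second S3 control among them, had 0. The line difference thus rests on 1 library, and without it no member met the definition.

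Counts of 0 in one line with fewer than 10 in the other were too few to tell the lines apart, and the most was 6 counts, for Os01g0314600 in S13. In all, 5 members had 0 counts in S13 and some in S3, and 4 had the reverse. Os01g0298301 (10932480 to 10933544, minus strand) came near the definition and is named after its values were seen. It had 1 count over the S13 libraries, in the second control, and 31 over the S3 libraries, with 5, 4 and 3 in S3 salt and 11 and 8 in S3 control libraries. Every S3 library had reads, and 4 of the 5 S13 libraries had none. A silent gene, an absent gene and one whose reads did not map cannot be told apart by counts.

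**Figure D4:**
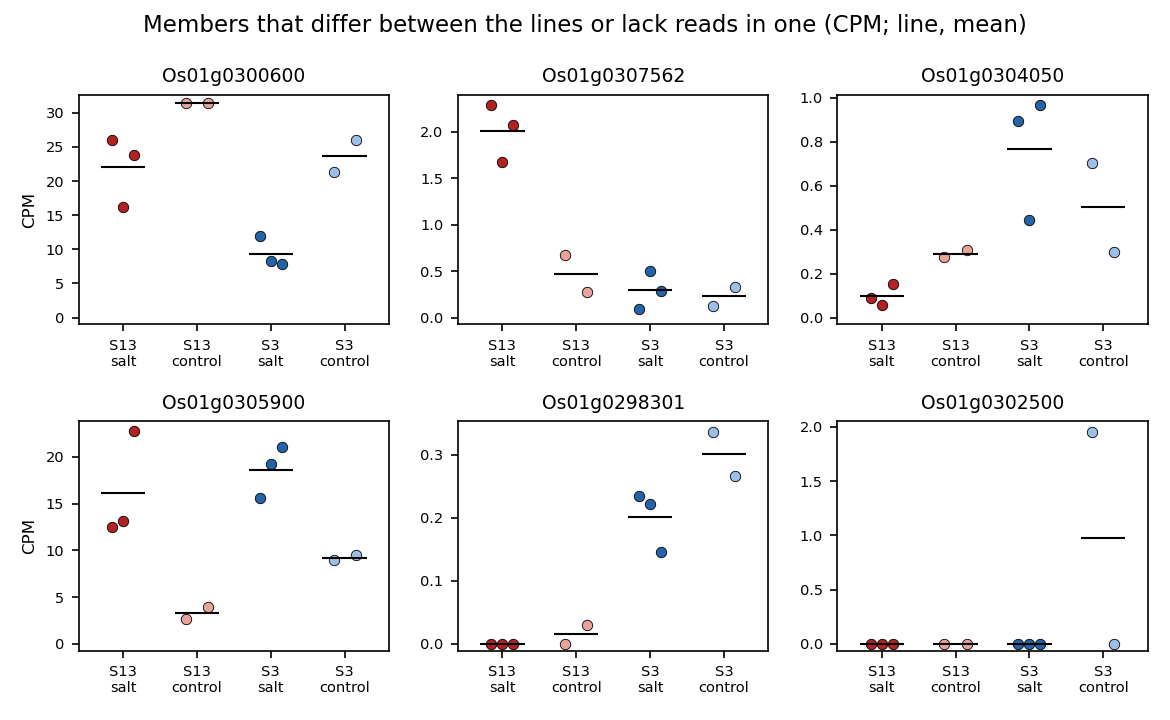
TMM-scaled CPM of 6 members in each library, with S13 salt, S13 control, S3 salt and S3 control from left to right, a point per library and a line at each group's mean. S13 salt libraries are apart from S3 salt libraries for Os01g0300600, Os01g0307562 and Os01g0304050, and the counts of Os01g0302500 come from a single S3 control library.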

How the data were processed

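The authors deposited raw read counts per gene, not normalized, with each gene's exon coordinates, strand and length in bases, per the file headers. The submitters' processing notes name FastQC, Trimmomatic, HISAT2, featureCounts, DESeq2 and the build IRGSP-1.0, without versions, settings or strandedness. Reads in exon bases shared by genes on opposite strands therefore cannot be assigned to either gene with certainty.

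R 4.3.3 and edgeR 4.0.16 were used for the counts. After filterByExpr by group, 28189 genes were left and 10789 dropped. Libraries were scaled by TMM (factors of 0.729 to 0.922 in salt and 1.31 to 1.42 in control libraries), and quasi-likelihood models with a mean for each of the 4 groups used all 10 libraries. A gene was called at a p under 0.05 after Benjamini-Hochberg adjustment over all tested genes. The standard error of a log2 fold change was its size divided by the square root of F. CPM values are TMM-scaled. The limit that a count of 0 allows, 3 counts, came to 0.0916 to 0.173 CPM and covers counting error only. The variance between replicates, averaged over genes as chi-square per degree of freedom, was 34.8 to 205 times that of sampling, so none repeated another. DESeq2 1.42.0, other scalings, filters and left-out libraries were alternatives. The test was also run on simulated data with few genes changed, a setting unlike the salt comparisons, and the outcome is not given here. Named members were, per comparison, up to 6 rises and 6 falls among called members of at least 5 CPM with no overlap between libraries, those with reads in 1 line only, and the 6 most abundant. The members and lists were chosen with earlier results of these data known.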

Additional observations from a re-analysis of the deposited data

How the results depend on the processing

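Of 37 called values of named members, 15 were past the threshold under every alternative, 22 were lost under at least 1, and 0 changed sign over 656 recomputed values. Another 8 values that had not passed did so under an alternative. With library totals these were Os01g0300600 (-1.23), Os01g0304050 (-2.20), Os01g0312500 (-1.34) and Os01g0312600 (-1.40) in S13, and Os01g0303000 (-1.13) and Os01g0305200 (-0.86) in S3. Os01g0306400 in S3 passed with DESeq2, only the S3 groups or either of 2 S13 salt libraries left out (1.59 to 1.64), and Os01g0307562 in S13 with DESeq2, its size factors, only the S13 groups or the first S3 salt library left out (2.08 to 2.12). The number of members called for salt was 39 in S13 with library totals, and ranged from 7 to 25 in S13 and from 11 to 45 in S3 when single libraries were left out; DESeq2 called 33 in S13 and 43 in S3. For S13 control against S3 control, DESeq2 called 1, and leaving out single libraries gave 0 to 1. For S13 salt against S3 salt, DESeq2 called 6, library totals and the filter at 5 CPM 1 each, only the groups compared 0, and left-out libraries 0 to 5. The difference of responses stayed at 0 calls in each alternative run. Members with reads in 1 line only were 2 when up to 3 counts were allowed in the empty line, and 0 to 2 with single libraries left out. With the filter at 5 CPM, 61 members were tested. Shares of all genes under these settings are not given here, so these counts cannot separate a shift of the members from one of all genes. The cause of these shifts was not tested.

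Values that changed sign were all of members that had not passed. In S3 with library totals, Os01g0304050 was at -0.091 and Os01g0307562 at -0.36, and left-out libraries moved Os01g0307562 between -0.23 and 1.21. Os01g0314800 in S13 was at -0.69 with library totals and -0.045 with the 5 CPM filter, and between -0.29 and 0.15 with left-out libraries. In S3 it was at 0.034 with DESeq2, 0.034 with DESeq2 size factors, 0.0061 with only the groups compared and 0.013 with 1 gene per overlapping set, and between -0.24 and 0.16 with left-out libraries.

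Over 13 pairs with the same replicate number the correlation of deviations was -0.135 to 0.199, and 1 was over 0.1. Pairs with different numbers reached -0.228 and 0.239. Deviations of the controls of a line mirror each other, so these values are not independent and cannot settle whether samples were paired. With the replicate number as a block, 22 members were called for salt in S13, 31 in S3 and 0 between the lines under salt, and Os01g0314800 was at -0.060 in S13. The shares of all genes with the block are not given here, so these counts do not compare the members with the genome.

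With 2 controls per line, leaving out a control ended many calls, and the cause was not tested. In each line, the lowest number of members called for salt with a library left out came from such a fit. It keeps a single control in that line, so these low ends are not interpreted. Members under about 1 CPM rest on few counts.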

Other observations

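The first S3 control library, which alone held the reads of Os01g0302500, held other genes of that kind. Over the whole genome, 19 genes had at least 10 counts in this library and 0 in the other 9, and 11 of them had at least 50. Each S13 control library had 1 such gene, and the remaining 7 libraries had 0.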
